A study of Mus musculus with 6 samples.

Results

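Neuropeptides are short signalling molecules that neurons cut from longer precursor proteins, store in dense-core vesicles and release beside fast transmitters. In the hippocampus, most peptide precursors are made by inhibitory interneurons, each class with its own set, while dentate granule neurons make opioid precursors. Several of these genes are textbook targets of neuronal activity, through the factor CREB and the cyclic AMP response element it binds. The 10 precursor genes described here are Penk, Pdyn, Npy, Sst, Vip, Cck, Tac1, Tac2, Crh and Cort. They were taken by symbol from the 29872 genes of a mouse hippocampus RNA sequencing series, and all 10 were found.

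The knockdown group (shHepaCAM, 3 libraries, genotype given as HepaCAM knockdown) came from C57BL/6 J mice given AAV, a viral vector, in the CA1 field on both sides. Its name points to a short hairpin RNA against Hepacam, which encodes an adhesion molecule of astrocytes. The control group (shControl, 3 libraries, genotype given as WT) came from the same strain and carries the same treatment note, so what vector, if any, the controls received is not clear from the labels. Promoter, target cell type and age are not stated either. Nothing says that each library came from a separate mouse, so every p-value reflects library-to-library spread and could be technical in part. The tissue is labelled hippocampus, with no field named, and values are listed throughout for replicates 1, 2 and 3 of a group.

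Values are RPKM, reads scaled by transcript length and library depth, as deposited by the authors. Depth, worked out from those values, was 15816575 to 16384937 reads in shHepaCAM and 14903196 to 17341840 reads in shControl libraries. Changes are differences of log2(RPKM + 1). The targeted gene, Hepacam, averaged 22.6 ± 1.76 RPKM in shHepaCAM and 35.6 ± 1.98 RPKM in shControl (SD, n = 3 each) and fell by 0.63 (limma adjusted p = 0.00924, and 0.0526 without shControl replicate 3). Without both shHepaCAM replicate 3 and shControl replicate 1, the Hepacam change was -0.54 (limma adjusted p = 0.0695). Markers of hippocampal neurons were present in each library. The 8 pyramidal neuron markers summed to 412 to 509 RPKM in shHepaCAM and 586 to 627 RPKM in shControl. The largest part was Slc17a7, which is not particular to pyramidal neurons. It was at 270.1, 196 and 222 RPKM in shHepaCAM and 339, 353 and 371 RPKM in shControl. Wfs1, another of the 8, went the other way, at 47.6, 68.0 and 79.3 RPKM in shHepaCAM and 45.0, 37.6 and 40.2 RPKM in shControl. Some libraries stood apart. The 9 choroid plexus markers summed to 2353, 1717 and 32.6 RPKM across shHepaCAM, and to 71.6, 4324 and 3714 RPKM across shControl. shHepaCAM replicate 2 was the highest of the 6 libraries for 34.1% of genes tested, more often than any other library.

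The promoter windows below belong to a pair of members that were lowest of all libraries in shHepaCAM replicate 2 (Sst and Cck) and a pair that were highest in it (Pdyn and Tac2). A link between promoter sequence and level was not tested, and windows picked by level in this way cannot show it. Each window shown was picked by that level alone. Each is the 250 bases before the RefSeq start of the gene on build GRCm38.p6, 5′ to 3′ on the strand of the gene, and 8 of the 10 members matched a window in the RefSeq table, Penk and Crh being the others. Capitals mark TGACG on either strand (CGTCA when read on the other), the core of the cyclic AMP response element. For Pdyn, which has 2 starts in the table, 1 is shown. The whole element, TGACGTCA, contains this core on both strands. Sst lies at chr16:23890845-23891094 on the minus strand, Cck at chr9:121495695-121495944 on the minus strand, Pdyn at chr2:129699939-129700188 on the minus strand and Tac2 at chr10:127724228-127724477 on the plus strand.
Sst: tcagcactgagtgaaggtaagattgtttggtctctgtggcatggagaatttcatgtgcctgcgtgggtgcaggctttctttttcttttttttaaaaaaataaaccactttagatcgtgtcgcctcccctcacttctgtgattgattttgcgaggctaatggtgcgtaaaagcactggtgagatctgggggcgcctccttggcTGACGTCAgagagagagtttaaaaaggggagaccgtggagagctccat
Cck: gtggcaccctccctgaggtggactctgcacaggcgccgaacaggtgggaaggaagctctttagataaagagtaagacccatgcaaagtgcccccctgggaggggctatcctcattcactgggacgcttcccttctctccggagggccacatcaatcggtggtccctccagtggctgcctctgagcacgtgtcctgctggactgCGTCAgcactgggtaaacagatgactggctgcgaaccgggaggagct
Pdyn: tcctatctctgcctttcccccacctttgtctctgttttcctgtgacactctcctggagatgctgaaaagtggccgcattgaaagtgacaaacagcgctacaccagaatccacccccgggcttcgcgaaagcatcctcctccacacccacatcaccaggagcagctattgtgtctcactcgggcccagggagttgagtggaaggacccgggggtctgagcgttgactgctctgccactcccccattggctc
Tac2: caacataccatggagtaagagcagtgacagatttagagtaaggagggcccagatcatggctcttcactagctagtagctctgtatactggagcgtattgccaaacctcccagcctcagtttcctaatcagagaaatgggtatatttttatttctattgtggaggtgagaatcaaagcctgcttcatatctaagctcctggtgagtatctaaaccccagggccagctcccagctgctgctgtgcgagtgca

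The whole element was found in 1 of the 8 windows, that of Sst, from 48 to 41 bases before the start, and in 1.55% of 32851 windows of the same length over the genome. The core was found in 5 of the 8, those of Sst, Vip, Cck, Tac1 and Cort, and in 17.8% of all windows. No match was present in the windows of Pdyn, Npy and Tac2, which says only that these letters are not in the 250 bases searched. Matches are a description of the sequence and not of binding.

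The 10 transcripts spanned more than 2 orders of magnitude on the RPKM scale, a per-length scale on which genes can be set side by side. In shHepaCAM libraries the order was Sst (256 ± 62.6 RPKM), Cck (205 ± 48.3), Npy (91.9 ± 18.1), Penk (34.3 ± 9.98), Cort (10.7 ± 4.09), Pdyn (7.37 ± 4.17), Tac2 (3.23 ± 1.28), Vip (3.13 ± 0.71), Tac1 (1.69 ± 0.29) and Crh (1.21 ± 0.36), each as mean ± SD over 3 libraries. Neighbours whose ranges did not meet were Cck and Npy, Npy and Penk, Penk and Cort, and Vip and Tac1. In shControl libraries the order was Sst (280.1 ± 9.24 RPKM), Cck (236 ± 6.48), Npy (69.4 ± 6.55), Penk (14.2 ± 4.02), Cort (8.63 ± 2.03), Pdyn (4.81 ± 0.15), Vip (3.14 ± 0.21), Tac1 (2.56 ± 1.16), Crh (1.85 ± 0.20) and Tac2 (1.67 ± 0.69). Here each gene down to Pdyn stood clear of the next except Penk, which overlapped Cort, while Vip overlapped Tac1, Tac1 overlapped Crh and Crh overlapped Tac2.

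**Figure D1:**
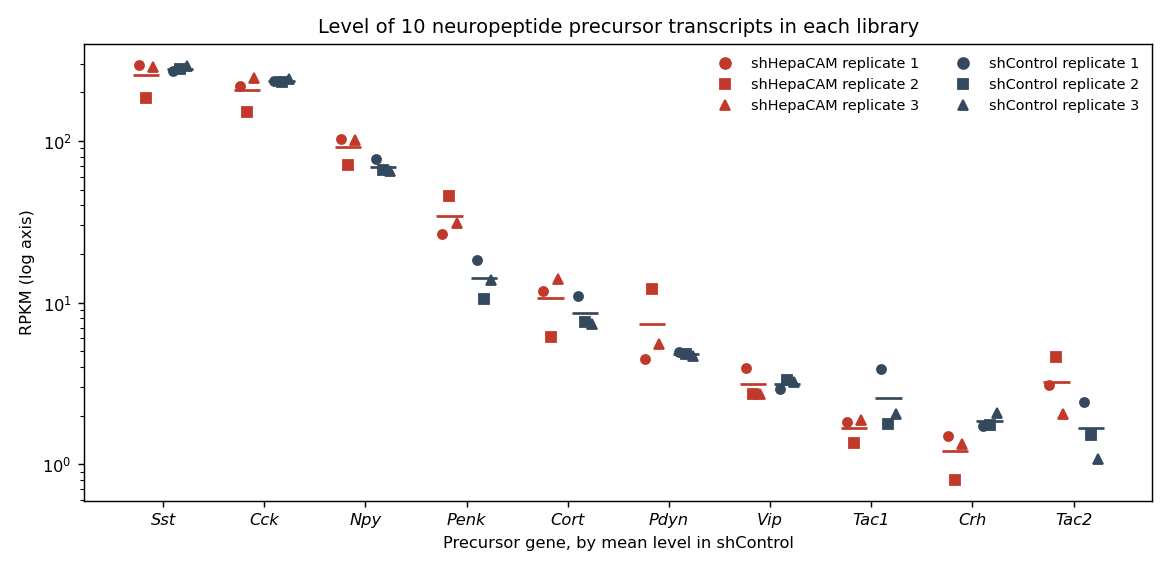
RPKM (log axis) of the 10 precursor transcripts in each library, with shHepaCAM at the left and shControl at the right of each gene, symbols for replicates and bars for group means. Penk lies between 26.4 and 45.5 RPKM in shHepaCAM, above all 3 shControl libraries, and shHepaCAM replicate 2 (square) is the lowest library for Sst, Cck, Tac1, Crh and Cort and the highest for Penk, Pdyn and Tac2.

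Comparing the knockdown with control libraries asks how peptide transcripts differ in the hippocampus after hepaCAM is lowered. Of the 10 precursors, all of which passed the filter of a mean of at least 1 RPKM, 1 rose (Penk), 0 fell and 9 did not pass limma's adjusted p of 0.05. Over all 13864 genes tested, 6.07% were called in either direction and 4.23% were called higher and 1.84% lower, so 1 in 10 is near the share of the table as a whole. The median log2 change of the 10 was 0.11, against 0.05 for all genes tested, with 5 values above 0 and 5 below. Over all genes tested, 8377 were above 0 and 5487 below. Groups did not overlap for Penk, which was higher, and Crh, which was lower. Such separation was seen in 31.5% of all genes tested.

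**Figure D2:**
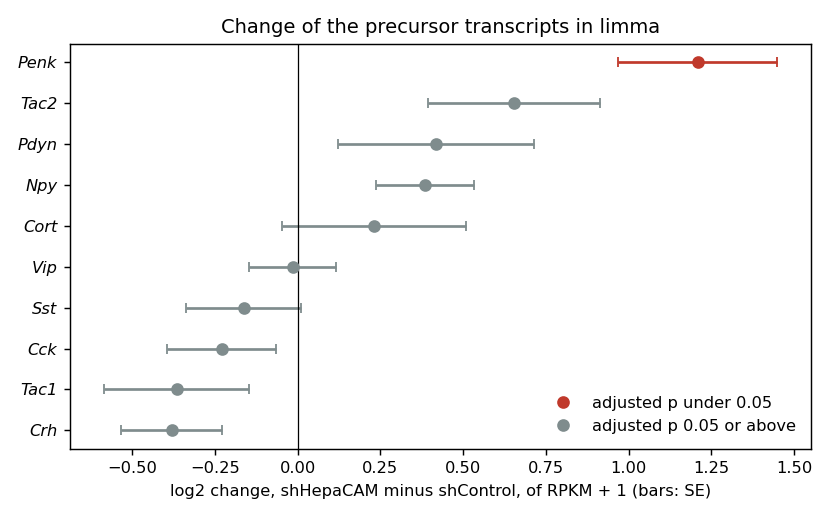
Change of each precursor in limma, shHepaCAM minus shControl, on the log2(RPKM + 1) scale, with bars of 1 SE. Penk, at 1.21, is the 1 gene with an adjusted p under 0.05, and the other 9 lie between -0.38 and 0.65.

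Penk encodes proenkephalin, the source of the enkephalins, which act on delta and mu opioid receptors. It measured 26.4, 45.5 and 31.0 RPKM across the shHepaCAM libraries, against 18.5, 10.4 and 13.8 RPKM across the shControl libraries. All 3 knockdown libraries lay above all 3 control libraries, with replicate 2 of the knockdown the highest and replicate 2 of the control the lowest. These values rest on 682, 1200 and 830 reads in shHepaCAM and 516, 296 and 337 reads in shControl. The group means were 34.3 ± 9.98 and 14.2 ± 4.02 RPKM in shHepaCAM and shControl (SD, n = 3 each), a ratio of 2.41. In limma Penk rose by 1.21 on the log2(RPKM + 1) scale (SE 0.24, 95% interval 0.64 to 1.77, adjusted p = 0.0356). In bulk tissue, fewer or more cells of a type and less or more transcript per cell cannot be told apart.

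The direction of the Penk difference held with each library left out, but the call did not. The log2 difference of Penk was 1.40 and 1.37 without shControl replicate 1 and shHepaCAM replicate 1 (limma adjusted p = 0.0475 and 0.0357). It was 1.02 and 1.21 without shControl replicates 2 and 3 (limma adjusted p = 0.107 and 0.121), and by 0.99 and 1.26 without shHepaCAM replicates 2 and 3 (limma adjusted p = 0.0769 and 0.0786). With shHepaCAM replicate 3 and shControl replicate 1 both left out, the libraries low in choroid plexus markers, the change was 1.45 (limma adjusted p = 0.0787). Exons of A830012C17Rik lie on the other strand at Penk, and the sources used here do not say whether reads were counted by strand. That gene had 1 read over the 3 shHepaCAM libraries and 1 read over the 3 shControl libraries.

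By the mean absolute difference of standardized log2 values over the 6 libraries, the 5 genes whose pattern was most like that of Penk were Tctn1, Tfam, Lgi2, Dok5 and Fyn, at 0.062 to 0.079. Of these, Lgi2 rose by 0.63 (limma adjusted p = 0.031). Tctn1, Tfam, Dok5 and Fyn had log2 changes of 0.28, 0.24, 0.71 and 0.21 and did not pass (limma adjusted p of 0.0509 to 0.15).

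Pdyn encodes prodynorphin, the precursor of dynorphins, which act on kappa opioid receptors and are made by dentate granule neurons. It measured 4.45, 12.1 and 5.52 RPKM across the shHepaCAM libraries, against 4.94, 4.83 and 4.65 RPKM across the shControl libraries. The control libraries lay close together, shHepaCAM replicate 2 stood far above them and shHepaCAM replicate 1 lay below all 3. In log2 terms the change was 0.42 (SE 0.30, 95% interval -0.28 to 1.11, limma adjusted p = 0.429), with 0.04 without shHepaCAM replicate 2 and 0.67 without shHepaCAM replicate 1.

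Among the interneuron peptides, Sst encodes somatostatin, an inhibitory peptide of dendrite-targeting interneurons. It measured 296, 183 and 287 RPKM across the shHepaCAM libraries, against 272, 278 and 290.1 RPKM across the shControl libraries. Replicate 1 of the knockdown lay just above the control range, replicate 3 within it and replicate 2 far below it. Its log2 change was -0.16 (SE 0.17, 95% interval -0.57 to 0.25, limma adjusted p = 0.608), with 0.058 without shHepaCAM replicate 2, and -0.28 and -0.26 without shHepaCAM replicates 1 and 3.

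Cort encodes cortistatin, a peptide related to somatostatin that binds the same receptors. It measured 11.9, 6.13 and 14.1 RPKM across the shHepaCAM libraries, against 11.0, 7.58 and 7.33 RPKM across the shControl libraries. As with Sst, the lowest library was shHepaCAM replicate 2, while the other two knockdown libraries were above all controls. On the log2 scale it differed by 0.23 (SE 0.28, limma adjusted p = 0.652), and it ran from 0.01 without shHepaCAM replicate 3 to 0.55 without shHepaCAM replicate 2.

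Npy encodes neuropeptide Y, which dampens excitatory transmission through its presynaptic receptors. It measured 103, 71.1 and 102 RPKM across the shHepaCAM libraries, against 76.9, 66.5 and 64.8 RPKM across the shControl libraries. Replicates 1 and 3 of the knockdown lay above all controls, and replicate 2 lay among them. The fitted change was 0.38 (SE 0.15, 95% interval 0.04 to 0.73, limma adjusted p = 0.173). Without shHepaCAM replicate 2, Npy passed the threshold with a log2 change of 0.56 (limma adjusted p = 0.0359), and it was then the 1 precursor called, since Penk was not.

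Cck encodes cholecystokinin, made by a class of basket cells and, at the transcript level, by pyramidal neurons. It measured 219, 152 and 245 RPKM across the shHepaCAM libraries, against 236, 230.1 and 243 RPKM across the shControl libraries. Again replicate 2 of the knockdown was the lowest of the 6, while replicate 3 of the knockdown was the highest. In log2 terms the change was -0.23 (SE 0.16, 95% interval -0.61 to 0.16, limma adjusted p = 0.434), with -0.027 without shHepaCAM replicate 2 and -0.37 without shHepaCAM replicate 3.

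Vip encodes vasoactive intestinal peptide, a marker of interneurons that inhibit other interneurons. It measured 3.96, 2.73 and 2.71 RPKM across the shHepaCAM libraries, against 2.90, 3.31 and 3.21 RPKM across the shControl libraries. The knockdown libraries lay on both sides of the control range. Its log2 change was -0.015 (SE 0.13, 95% interval -0.32 to 0.29, limma adjusted p = 0.957), and its sign turned in 6 of 16 alternatives.

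Of the tachykinin precursors, Tac1 encodes substance P and neurokinin A. It measured 1.82, 1.35 and 1.89 RPKM across the shHepaCAM libraries, against 3.89, 1.76 and 2.03 RPKM across the shControl libraries. shControl replicate 1 stood well above the other 5 libraries. On the log2 scale it differed by -0.37 (SE 0.22, limma adjusted p = 0.353), and -0.11 without that library. The same library was the highest of the 6 for 2 of the 3 tested markers of habenula and thalamus, structures next to the hippocampus. Pou4f1, a factor of habenular neurons that lay under the filter, was at 0.04, 0.09 and 0.01 RPKM in shHepaCAM and at 1.24, 0.02 and 0 RPKM in shControl. Tcf7l2, a factor of thalamic and habenular neurons, was at 0.76, 1.28 and 0.59 RPKM in shHepaCAM and at 2.00, 0.75 and 0.84 RPKM in shControl. The 8 markers of that list summed to 9.15 to 9.99 RPKM in shHepaCAM, to 15.1 RPKM in shControl replicate 1, and to 9.28 and 10.3 RPKM in shControl replicates 2 and 3. Their part in the Tac1 value was not tested.

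Tac2 encodes neurokinin B. It measured 3.07, 4.59 and 2.04 RPKM across the shHepaCAM libraries, against 2.42, 1.51 and 1.07 RPKM across the shControl libraries. The groups overlapped through shHepaCAM replicate 3 and shControl replicate 1, and the values rest on 46 to 102 reads in shHepaCAM and 22 to 57 reads in shControl. The fitted change was 0.65 (SE 0.26, 95% interval 0.05 to 1.26, limma adjusted p = 0.181). For Tac2 it was 0.43 without shHepaCAM replicate 2, and 1.07 without both shHepaCAM replicate 3 and shControl replicate 1.

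Crh encodes corticotropin-releasing hormone, a stress peptide that hippocampal interneurons also make. It measured 1.48, 0.80 and 1.34 RPKM across the shHepaCAM libraries, against 1.73, 1.75 and 2.08 RPKM across the shControl libraries. All knockdown libraries lay below all control libraries, on 17 to 31 reads in shHepaCAM and 39 to 41 reads in shControl. In log2 terms the change was -0.38 (SE 0.15, 95% interval -0.74 to -0.02, limma adjusted p = 0.183), and adjusted p-values ran from 0.135 to 0.416 over the alternatives. The Crh change was -0.24 without shHepaCAM replicate 2 and -0.64 with limma-voom on whole reads. Groups that did not overlap with the knockdown lower were found for 10.7% of genes tested.

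The precursors split in shHepaCAM replicate 2. It was the highest of the 6 libraries for 3 of the 10, Penk, Pdyn and Tac2, and the lowest for 5, Sst, Cck, Tac1, Crh and Cort. Over all genes tested it was the highest for 34.1% and the lowest for 18.1%. The same library was the highest for 14 of 16 activity-regulated genes, which neurons induce when they fire. Summed over that list, levels were 675, 1049 and 430.1 RPKM across shHepaCAM and 364, 378 and 339.5 RPKM across shControl. In the whole list 5 of 16 genes rose and 0 fell, with a median log2 change of 0.88, and the count ran from 0 to 9 over the 17 alternatives. By comparison, 4.23% of all genes tested were called higher and 1.84% lower, and the median log2 change of all genes tested was 0.05.

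The called genes were Nptx2, a secreted protein that gathers glutamate receptors, the growth factor gene Bdnf, the transcription factor Npas4, and the early response genes Btg2 and Ier2. Nptx2 stood at 30.7, 50.6 and 36.3 RPKM in shHepaCAM and at 18.6, 16.5 and 17.8 RPKM in shControl, and rose by 1.08 (SE 0.16, limma adjusted p = 0.0187). Its adjusted p was 0.0529, 0.0786 and 0.0798 without shControl replicates 1, 2 and 3, and 0.0122 to 0.0456 without each of the knockdown libraries. Like Penk, it was above all controls in each knockdown library and highest in replicate 2. Fos, a marker of recent firing, was at 24.2, 56.0 and 14.6 RPKM in shHepaCAM and at 9.22, 11.9 and 8.39 RPKM in shControl. In shHepaCAM replicate 3, Penk was at 2.18 times its control mean. The called genes Npas4, Btg2, Nptx2, Ier2 and Bdnf were there at 2.27, 2.16, 2.06, 1.97 and 1.60 times theirs. Their calls and that of Penk used this same library. High values in it, and the likeness of these genes to Penk there, are in part a result of that choice. Fos, Inhba, Nr4a1, Egr1, Junb and Crem were at 1.48, 1.44, 1.26, 1.23, 1.15 and 1.05 times theirs. Fosb, Egr2, Egr4, Arc and Fosl2 were at 0.97, 0.68, 0.74, 0.88 and 0.91 times theirs. The part of activity-regulated transcription in the Penk result was not tested.

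**Figure D3:**
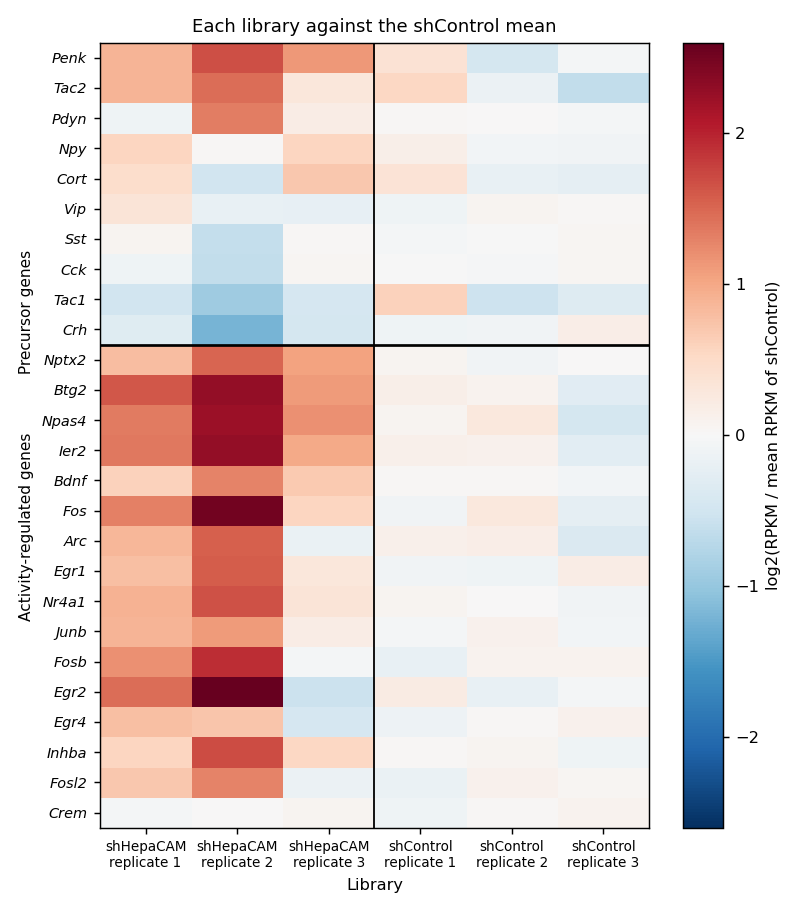
Each library against the mean of shControl, as log2 of the RPKM ratio, for the 10 precursors (above the line) and 16 activity-regulated genes (below it), with shHepaCAM libraries at the left. shHepaCAM replicate 2 holds the highest values of Penk, Tac2 and Pdyn and of 14 activity-regulated genes, and the lowest of Sst, Cck, Tac1, Crh and Cort.

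Among receptors for these peptides, 13 of 21 passed the filter, 1 rose, 0 fell and 12 did not pass, with a median log2 change of 0.12. Oprd1, the delta opioid receptor that enkephalins bind, measured 3.11, 3.90 and 2.16 RPKM across the shHepaCAM libraries, against 1.44, 1.31 and 1.25 RPKM across the shControl libraries. All knockdown libraries lay above all controls. Oprd1 rose by 0.78 (SE 0.16, limma adjusted p = 0.0419). It kept the call without shHepaCAM replicate 3 (limma adjusted p = 0.0282), and lost it without any of the other 5 libraries (limma adjusted p of 0.0817 to 0.139). Oprm1, the mu receptor, lay under the filter at up to 0.02 RPKM in shHepaCAM and in shControl. Oprk1, the kappa receptor, also lay under it and was not tested. It was at 0.055, 0.041 and 0.040 RPKM in shHepaCAM and at 0.147, 0.082 and 0.117 RPKM in shControl. These values rest on 8, 6 and 6 reads in shHepaCAM and 23, 13 and 16 reads in shControl.

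The other receptors did not pass. Npy1r and Npy2r, the receptors Y1 and Y2 of neuropeptide Y, had opposite signs, with log2 changes of 0.35 and -0.59 (limma adjusted p = 0.0974 and 0.184). Npy2r was at 9.44, 4.62 and 9.18 RPKM in shHepaCAM and at 10.3, 11.9 and 12.9 RPKM in shControl. Groups did not overlap for Npy2r, which was lower, nor for Npy1r, which was higher. Of the somatostatin receptors, Sstr2 and Sstr4 had log2 changes of 0.43 and 0.27, and Sstr1 of -0.38 (limma adjusted p = 0.184, 0.158 and 0.216). Among the 4 somatostatin receptors tested, Sstr1 was the 1 whose groups did not overlap. They all but touched, with shHepaCAM replicate 1 at 2.967 RPKM and shControl replicate 1 at 2.971 RPKM. Crhr1, the main receptor of corticotropin-releasing hormone, had a log2 change of 0.23 (limma adjusted p = 0.186). Its groups did not overlap, with the knockdown higher. Of the 13 receptors tested, 3 separated the groups upward and 2 downward, against 20.9% and 10.7% of all genes tested. Cckbr and Vipr1, receptors of cholecystokinin and vasoactive intestinal peptide, had log2 changes of -0.23 and 0.12 (limma adjusted p = 0.447 and 0.402). The tachykinin receptors Tacr1, Tacr2 and Tacr3 were under 1 RPKM in every library.

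Genes that process peptide precursors and build dense-core vesicles were all measured above the filter. Of these 15, 2 rose, 0 fell and 13 did not pass, with a median log2 change of 0.0011. Vgf, itself a precursor of secreted peptides, stood at 135, 136 and 123 RPKM in shHepaCAM and at 96.6, 98.6 and 113 RPKM in shControl, and rose by 0.35 (SE 0.08, limma adjusted p = 0.0486). Scg3, a granin of vesicle membranes, stood at 97.9, 103 and 108 RPKM in shHepaCAM and at 85.3, 82.2 and 84.1 RPKM in shControl, and rose by 0.29 (SE 0.06, limma adjusted p = 0.0344). Vgf lost the call without any 1 of the 6 libraries (limma adjusted p of 0.0716 to 0.167). Scg3 kept it without shHepaCAM replicate 1 (limma adjusted p = 0.0332) and lost it without any of the other 5 (limma adjusted p of 0.0593 to 0.136).

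The convertases Pcsk1 and Pcsk2, which make the first cuts in the precursors, had log2 changes of 0.31 and 0.0011 (limma adjusted p = 0.452 and 0.994). Cpe, the carboxypeptidase that trims the cut ends, was at 1099, 865 and 1062 RPKM in shHepaCAM and at 1240.0, 1178 and 1187 RPKM in shControl. Its groups did not overlap, and it had a log2 change of -0.26 (limma adjusted p = 0.196). Chgb and Scg2, granins of the vesicle core, also separated the groups, in opposite directions, at -0.36 and 0.40 (limma adjusted p = 0.102 and 0.0802). Of the 15 genes, 3 separated the groups upward and 3 downward, against 20.9% and 10.7% of all genes tested.

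Of 20 other peptide genes analysed, counting the CRH binding protein Crhbp, 10 passed the filter and 0 were called. Their median log2 change was 0.09. Cartpt, the precursor of CART peptides, stood at 3.42, 9.37 and 4.64 RPKM in shHepaCAM and at 3.80, 1.63 and 1.16 RPKM in shControl, so the log2 change came to 1.08 (SE 0.38, limma adjusted p = 0.143). As with Penk, shHepaCAM replicate 2 was the highest, but shControl replicate 1 overlapped the knockdown. Adcyap1, the precursor of PACAP, was at 1.82, 0.53 and 1.02 RPKM in shHepaCAM and at 3.27, 1.68 and 1.61 RPKM in shControl, with a log2 change of -0.59 (limma adjusted p = 0.238), and of -0.36 and -0.38 without shControl replicate 1 and shHepaCAM replicate 2. Crhbp, which marks a subset of Sst interneurons, was at 15.6, 8.57 and 21.3 RPKM in shHepaCAM and at 12.3, 12.9 and 16.0 RPKM in shControl. Its lowest library was again shHepaCAM replicate 2, as for Sst and Cort.

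**Figure D4:**
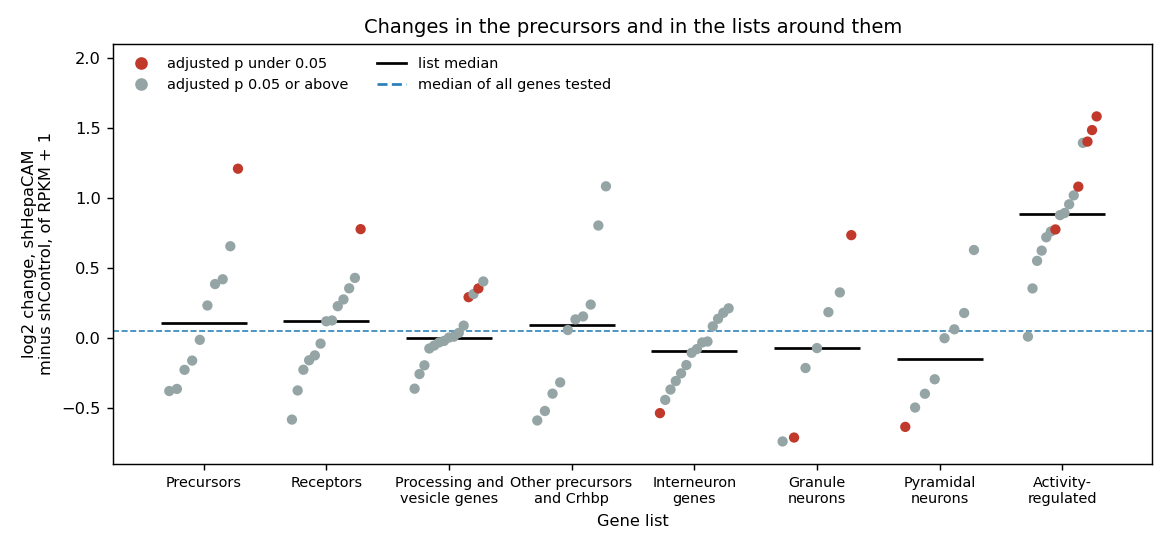
Log2 change of RPKM + 1, shHepaCAM minus shControl, for each gene tested in 8 lists, in red where the adjusted p was under 0.05, with list medians as black bars and the median of all genes tested as a dashed line. The precursors, receptors and processing genes centre near 0 with 1, 1 and 2 calls, and the activity-regulated genes centre at 0.88 with 5.

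Genes of the neurons that make these peptides give the setting for the values above. Of 14 inhibitory interneuron genes tested, 0 rose, 1 fell and 13 did not pass, with a median log2 change of -0.09, and their 16 levels summed to 205, 159 and 164 RPKM in shHepaCAM and to 194, 180.2 and 195 RPKM in shControl. Nos1, a nitric oxide synthase that marks interneurons, many of which also carry Npy, was at 6.81, 4.82 and 6.34 RPKM in shHepaCAM and at 8.82, 9.78 and 8.67 RPKM in shControl. It fell by 0.54 (SE 0.12, limma adjusted p = 0.0452), a call kept without shHepaCAM replicate 1 (limma adjusted p = 0.0388) and lost without any of the other 5 libraries (limma adjusted p of 0.0538 to 0.151). Exons of Gm26995 lie on the other strand there, with 1 read over the shHepaCAM and 1 read over the shControl libraries. Gad1, which makes GABA, had a log2 change of 0.21 (limma adjusted p = 0.082). shHepaCAM replicate 2 was the lowest of the 6 libraries for 8 of the 14 interneuron genes, for 4 of 8 pyramidal neuron markers and for 0 of 7 granule neuron markers. That library was the lowest for 18.1% of all genes tested, and the difference between these lists was not tested.

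Of the 8 pyramidal neuron markers 1 fell, Slc17a7, the vesicular glutamate transporter, by 0.64 (limma adjusted p = 0.0289), and 0 rose. Its adjusted p was over 0.05 without shHepaCAM replicate 3 (0.078) and without shControl replicates 1, 2 and 3 (0.0742, 0.104 and 0.117). Wfs1 had a log2 change of 0.63 and did not pass (limma adjusted p = 0.084). Of the 8 log2 changes, 3 were above 0 and 5 below. Of the 7 granule neuron markers Trpc6 rose by 0.73 and Calb1, a calcium buffer, fell by 0.71 (limma adjusted p = 0.0308 and 0.0299). Trpc6 missed the threshold without shHepaCAM replicate 3 and each control library (0.0772 to 0.112), and Calb1 without any library but shHepaCAM replicate 1 (0.0535 to 0.116). Neither Slc17a7 nor Calb1 is particular to a single neuron class, and which neurons their changes came from was not tested.

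Because Penk is abundant in the striatum, markers of neighbouring tissues were read beside it. Drd2, Adora2a and Gpr6, markers of the striatal neurons that make enkephalin, were at 0.41 to 1.44, 0.62 to 1.34 and 0.34 to 0.59 RPKM in shHepaCAM and at 0.95 to 1.74, 1.07 to 1.31 and 0.36 to 0.79 RPKM in shControl. The groups overlapped for each of the 3. Of the 6 striatal markers tested 0 were called, and the 8 summed to 36.5 to 49.9 RPKM in shHepaCAM and 32.9 to 55.5 RPKM in shControl, mostly from Ppp1r1b (36.1, 31.8 and 23.6 RPKM in shHepaCAM and 20.3, 41.9 and 39.7 RPKM in shControl). Drd1, a marker of the other striatal class that granule neurons also express, was at 1.73, 4.80 and 2.59 RPKM in shHepaCAM and at 0.55, 0.83 and 0.89 RPKM in shControl (log2 change 1.14, limma adjusted p = 0.0515). Its groups did not overlap, with the knockdown higher, as in 20.9% of all genes tested. It gained a call in 4 of 16 alternatives, 1 of them without shHepaCAM replicate 1 (limma adjusted p = 0.0285). The part of striatal tissue in the Penk result was not tested. The habenula and thalamus list had 0 of 3 tested genes called, the neocortex list 0 of 5, and the hypothalamus and amygdala list 1 of 3, Rspo2, which fell by 0.78 (limma adjusted p = 0.016). In lists without a call, the genes with the smallest p were Nwd2 and Tcf7l2 for habenula and thalamus (log2 changes of -0.46 and -0.20, limma adjusted p = 0.0547 and 0.662) and Tbr1 and Fezf2 for neocortex (-0.25 and -0.28, limma adjusted p = 0.103 and 0.473). Nwd2 gained a call in 4 of 16 alternatives, with limma adjusted p-values from 0.012. The Rspo2 call was lost when shControl replicate 2 or 3 was left out (0.0759 and 0.0797).

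Non-neuronal lists moved with the groups in part. Of 6 microglia markers 4 rose (Cx3cr1, Csf1r, C1qa and Aif1), and the list summed to 315 to 402 RPKM in shHepaCAM and 177 to 211 RPKM in shControl. Of 4 lymphocyte markers tested 3 rose (Trac, Trbc2 and Jchain), and the 8 summed to 20.5 to 87.5 RPKM in shHepaCAM and 1.73 to 2.64 RPKM in shControl, mostly from Jchain. Over the 17 alternatives, calls ran from 0 to 4 for microglia and from 1 to 4 for lymphocytes. The share called higher among all genes tested was 4.23%. Of 6 astrocyte markers 1 fell, Slc1a2, by 0.37 (limma adjusted p = 0.0181, and 0.0683, 0.0858 and 0.0738 without shControl replicates 1, 2 and 3). The fibroblast list (7 tested), the oligodendrocyte list (6 tested) and the choroid plexus list (9 tested) had 0 calls. Their smallest p-values belonged to Slc6a13 and Lum (0.43 and 0.50), Mog and Mbp (0.24 and 0.30), and Kl and Otx2 (-0.58 and -0.86), given as log2 changes. Of the 7 fibroblast markers, a further source of Penk, 5 had a log2 change above 0, with a median of 0.28. Over all 13864 genes tested, 8377 had a log2 change above 0. Lum passed without shHepaCAM replicate 3 (0.77, limma adjusted p = 0.0428), and Otx2 passed without the low-choroid pair, shHepaCAM replicate 3 and shControl replicate 1 (limma adjusted p = 0.0311). Leaving out single libraries gave 0.27 to 0.53 for Slc6a13, 0.31 to 0.77 for Lum, 0.18 to 0.49 for Mbp and -1.60 to -0.26 for Otx2. The fibroblast markers summed to 49.8, 43.9 and 20.6 RPKM in shHepaCAM and to 22.6, 70.6 and 52.4 RPKM in shControl. Most of that came from Igf2 in the libraries rich in choroid plexus markers, at 30.5, 24.3 and 8.96 RPKM in shHepaCAM and at 10.4, 55.2 and 41.0 RPKM in shControl. The part of these cells in the Penk result was not tested.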

How the data were processed

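RNA from mouse hippocampus was sequenced in 3 shHepaCAM and 3 shControl libraries, grouped and numbered by their titles. The authors deposited RPKM values, 1 file per library. Per the submitters' processing notes, TopHat2 2.0.12, Bowtie2 2.0.6 and build mm39 were used; the sources used here name no counter, annotation or strand setting. Names and exon lengths came from GENCODE M21, on another build. Whole reads were worked out from the RPKM steps for 99.4% of genes (tolerance 0.01 read). No 2 libraries agreed within counting noise (lowest chi-square 3.67 per degree of freedom).

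Genes were kept where RPKM averaged 1 or more over the 6 libraries (13864 genes). Their log2(RPKM + 1) values were compared by limma 3.58.1 (R 4.3.3, trended prior variance), and p-values were adjusted by Benjamini-Hochberg over all of them, with a threshold of 0.05. This scale understates changes of low genes. The 95% intervals are for each gene alone and are not adjusted. A gene that was not called can thus have an interval wholly above or below no change. Named are Hepacam, the 10 members, the called genes of 17 further lists (or the 2 smallest p where none passed) and the 5 genes most like a called member. Members, lists and tests were chosen with earlier results of these data known. Genes named outside this rule, among them further receptors, processing genes and markers, were chosen after their values were seen. The 17 alternatives were other scalings, filters, pseudocounts and fits, a replicate block, a Ttr covariate and leaving out libraries. Figures were drawn with matplotlib 3.10.9.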

Additional observations from a re-analysis of the deposited data

How the results depend on the processing

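Of all genes tested, 842 were called, 587 higher and 255 lower. Scaling libraries by their median gene gave 336 higher and 347 lower, and quantile normalization 390 and 341. The count was 169 with no filter, where 29872 genes were tested, 157 with the replicate block, 104 without shHepaCAM replicate 3 and shControl replicate 1 (the low-choroid pair), and 98 to 867 with single libraries left out. Leaving out shControl replicates 1, 2 and 3 in turn gave 235, 126 and 98, and leaving out shHepaCAM replicates 2 and 3 gave 421 and 328. The count of precursors called was 1 and became 0 with no filter, with no mean-variance trend, with the replicate block, without the low-choroid pair and with a Ttr covariate. It was 0 to 1 with single libraries left out. Penk lost its call in 9 of 17 alternatives, with changes of 0.99 to 1.45 and adjusted p-values up to 0.121 in limma, among them 0.108 with the replicate block and 0.0505 with the Ttr covariate. It was called by limma-voom on whole reads at 0.0169. Replicate numbers were not taken as a pairing, since deviations of same-numbered libraries correlated at -0.21, 0.0155 and -0.145. The cause of these differences was not tested. Npy gained a call in 1 of 17.

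Signs turned for 5 named genes, none of them called. Sst ran from -0.28 to 0.058 and Vip from -0.15 to 0.056 with single libraries left out, and Vip was at 0.019 with array weights, 0.014 without the low-choroid pair and 0.018 with the Ttr covariate. Without that pair Drd2 was at 0.0077 and Tcf7l2 at 0.16. With single libraries left out Tcf7l2 ran from -0.35 to 0.050 and the choroid plexus gene Kl from -1.35 to 0.018. Crh and Tac2 rest on 17 to 102 reads per library, so counting error alone is wide for them. Tac1 rests on 74 to 226 reads per library, with 226, 104 and 103 reads in shControl.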

Other observations

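Trh, the precursor of thyrotropin-releasing hormone, was at 0.78, 4.79 and 0.53 RPKM across the shHepaCAM libraries and at 0.25, 0.33 and 0.78 RPKM across the shControl libraries. It was thus high in 1 library, shHepaCAM replicate 2, at 10.5 times the control mean, and its log2 change of 0.80 did not pass limma (adjusted p = 0.352). Grp, the precursor of gastrin-releasing peptide, was at 13.6, 6.14 and 5.30 RPKM in shHepaCAM and at 7.78, 17.5 and 11.0 RPKM in shControl, with the groups overlapping. Calb2, the calcium buffer calretinin, ranged from 5.64 to 23.5 RPKM in shHepaCAM and from 12.0 to 19.9 RPKM in shControl, the widest spread among the interneuron genes in log2 standard error (0.44).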
